A study of Rattus norvegicus with 36 samples.

Results

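Arc, the activity-regulated cytoskeleton-associated gene, was followed across the nucleus accumbens of 9 Sprague-Dawley rats aged 8 weeks. It was read from the row ENSRNOG00000043465, 1 of 31546 gene IDs in the deposited count tables and 1 of the 16029 that passed the filter on low counts. The files list Ensembl IDs without names, so the name rests on that ID alone. Place preference conditioning pairs a drug with a compartment and then asks how long the animal stays there. The groups were 3 Vulnerable and 3 Non Vulnerable rats, both labelled with 4 cocaine injections (20 mg/kg, intraperitoneal), and 3 Saline rats labelled with 4 injections of physiological serum. Every cocaine rat also received saline in the opposite compartment, in sessions of 20 min held 6 h apart, and Saline rats received saline in both. Vulnerable and Non Vulnerable are the phenotype labels. The series speaks of rats that did or did not express the preference, without saying which label is which. The preference test came on the day after conditioning ended, and the labels do not say how long after that test the tissue was taken. Each rat was sequenced as 4 technical replicates, a to d, whose counts were summed.

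Arc is an immediate early gene: synaptic activity switches on its transcription through ERK signalling, CREB, SRF and MEF2, without new protein synthesis. Its mRNA travels into dendrites and is translated near active synapses, where the protein promotes endocytosis of AMPA receptors and scales down synaptic strength. The protein descends from a retrotransposon Gag protein and can assemble into capsid-like particles. In striatal projection neurons, dopamine D1 receptor signalling raises Arc mRNA after cocaine, and both mRNA and protein are short-lived.

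Total counts per rat ran from 41213813 to 64081679. Levels are CPM, counts scaled to a common library total. In a principal component analysis of log2 CPM, whose leading axis held 40.2% of the variance, Non Vulnerable rats 2 and 3 scored -46.9 and -58.5, far from Non Vulnerable rat 1 at -7.51. Vulnerable rats scored 21.7 to 34.2 and Saline rats 7.3 to 10. The 10 most counted genes took 18.2% of the counts of Non Vulnerable rat 1 and 10.5% to 13.3% in the other rats. Results that rest on Non Vulnerable rat 1 are therefore given with and without it.

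Arc was most abundant in Vulnerable rats, at 118, 138 and 80.8 CPM in rats 1 to 3 after TMM scaling, which adjusts library totals for composition. It stood at 81.8, 49.8 and 24.7 CPM in Non Vulnerable rats 1 to 3. Saline rats 1 to 3 had 54.3, 32.5 and 30.5 CPM. The Vulnerable rats lay above every Saline rat, while the Non Vulnerable rats reached both above and below the Saline rats. Group means were 112 ± 29.2 CPM in Vulnerable, 52.1 ± 28.6 CPM in Non Vulnerable and 39.1 ± 13.2 CPM in Saline rats (SD, n = 3 each). In bulk tissue, fewer cells of a type and less RNA per cell cannot be told apart.

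Ordered by level, the rats ran from Vulnerable rat 2 and Vulnerable rat 1 to Non Vulnerable rat 1 and Vulnerable rat 3, which were level with each other. The exact 95% Poisson intervals of that pair, which cover counting error only, were 78.6 to 83 CPM in Vulnerable rat 3 and 79.2 to 84.5 CPM in Non Vulnerable rat 1. Saline rat 1 and Non Vulnerable rat 2 came next, 1.09-fold apart, followed by Saline rats 2 and 3 and, lowest of all, Non Vulnerable rat 3. The scaling decides which of the level pair comes first. With plain library totals Vulnerable rat 3 had 84.4 CPM and Non Vulnerable rat 1 had 73.7 CPM. Median-of-ratios scaling gave 81.8 CPM in Vulnerable rat 3 and 81.7 CPM in Non Vulnerable rat 1.

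**Figure D1:**
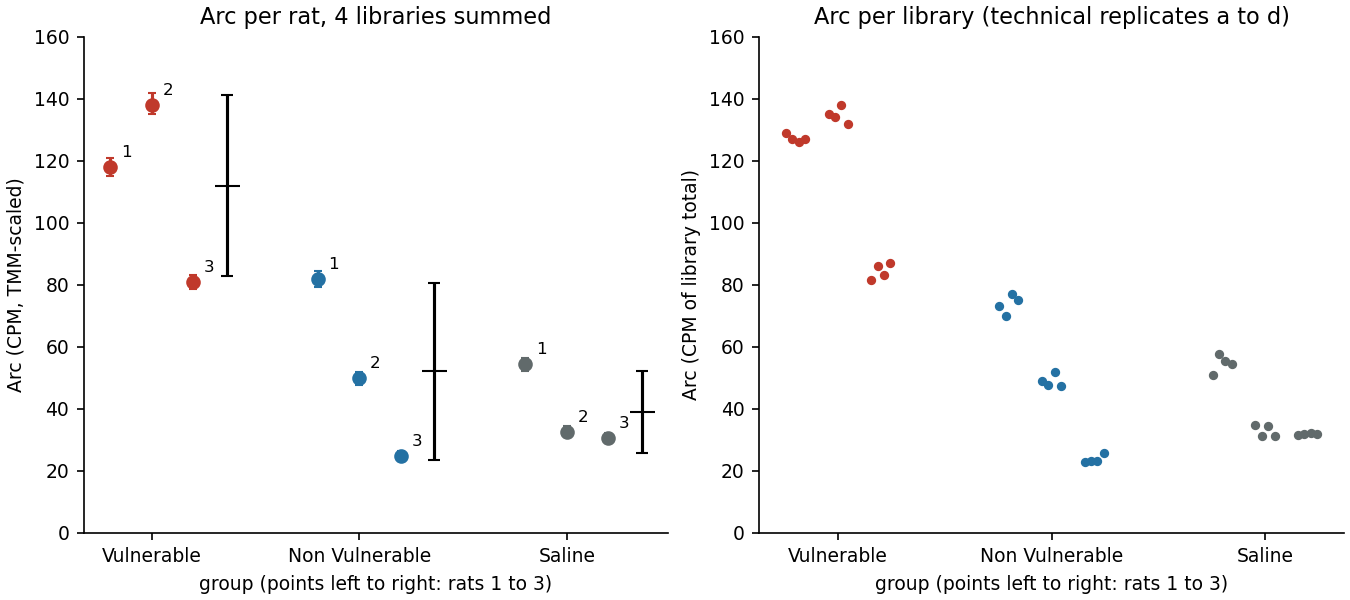
Arc by group. Left, TMM-scaled CPM of each rat with its 95% counting interval (numbers are rat numbers) and, in black, the mean ± SD of the 3 rats; right, CPM of the library total in each of the 36 libraries. All 3 Vulnerable rats lie above all 3 Saline rats, and the 4 libraries of a rat lie close together.

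Over the 9 rats together, Arc differed far more than between libraries of a rat. Some rats overlapped in their libraries, such as Saline rats 2 and 3. The part of library preparation in the differences between rats was not tested. Arc received between 1000 counts (Non Vulnerable rat 3) and 7046 counts (Vulnerable rat 2), which puts the counting error at 3.16% and 1.19%. Over libraries a to d, CPM of the library total ran from 126 to 129 in Vulnerable rat 1, from 132 to 138 in Vulnerable rat 2 and from 81.7 to 87 in Vulnerable rat 3. The libraries of Non Vulnerable rats 1 to 3 spanned 69.9 to 77, 47.2 to 52 and 23 to 25.9 CPM. Those of Saline rats 1 to 3 spanned 50.8 to 57.8, 31.1 to 34.8 and 31.4 to 32.3 CPM. A chi-square test of Arc counts against library totals gave p of 0.109 to 0.986 over the 9 rats, so a difference beyond counting noise was not seen in any rat.

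Vulnerable over Saline was the widest gap between group means of Arc. Arc was 2.87-fold higher in Vulnerable rats, a log2 fold change of 1.52 with SE 0.41 and a 95% interval of 0.59 to 2.45. All 3 Vulnerable rats lay above all 3 Saline rats, as did the groups for 6.76% of all genes tested. The difference did not pass the test across all genes (edgeR adjusted p = 0.897, unadjusted p = 0.00491). In this comparison edgeR called 0% of genes, with 807 genes (5.03% of those tested) at an unadjusted p under 0.05. DESeq2 called 30 genes (0.203% of those it gave an adjusted p), of which Arc was 1 (adjusted p = 0.0499), and limma voom called 0 genes. An exact two-sided permutation test of log2 CPM gave p = 0.1, the smallest that 3 rats against 3 allow.

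Set beside all other genes in that comparison, the rise of Arc in Vulnerable over Saline rats stood at place 13 of 16029 by fold change and place 65 by p. Among the 13727 genes with a mean of at least 1 CPM it was at place 3 by rise. Among 2590 genes, Arc included, whose mean log2 CPM lay within 0.5 of its own, it had the largest rise, but its SE of 0.41 compares with a median SE of 0.088 among them. These places are a description, since Arc was chosen with results of these data known. With any 1 rat left out, the log2 fold change stayed between 1.34 and 1.83, and the unadjusted edgeR p between 0.000906 and 0.0215. The smallest of these p came without Non Vulnerable rat 3, which is outside this comparison and enters only the common spread. Without a Vulnerable or Saline rat, the unadjusted edgeR p ran from 0.00439 to 0.0215. The edgeR adjusted p was 0.408 or more in every one of these fits.

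**Figure D2:**
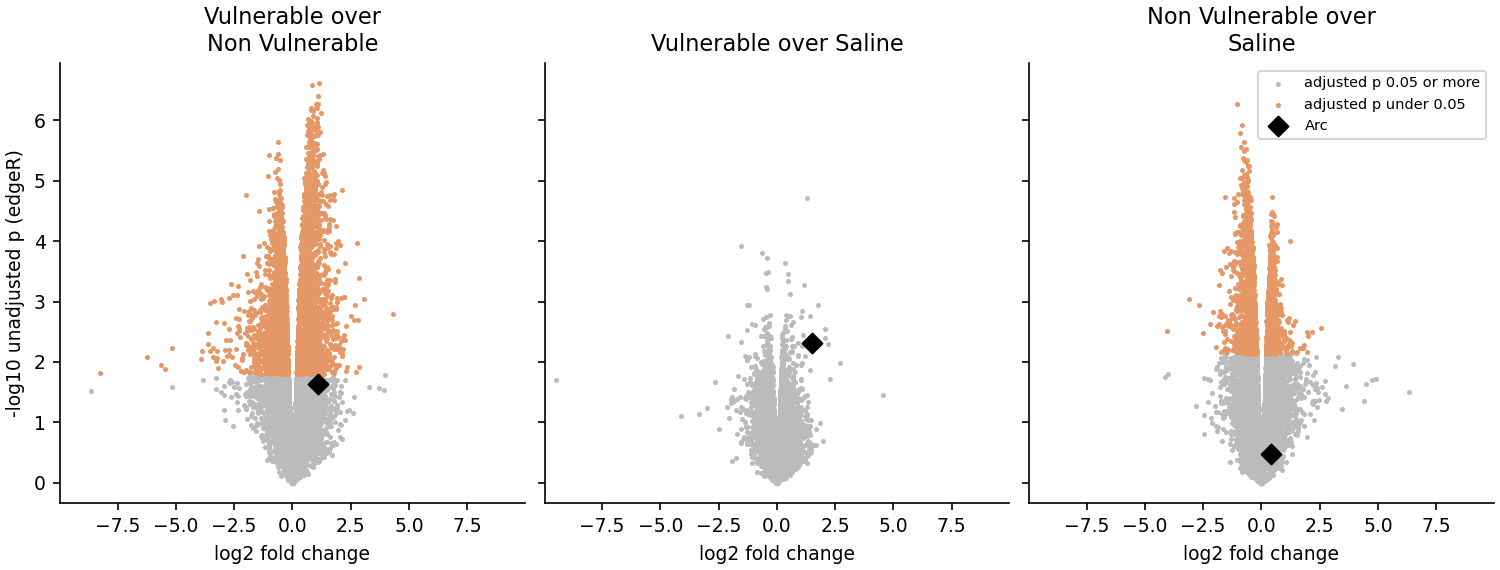
Log2 fold change (horizontal) against −log10 of the unadjusted edgeR p (vertical) of the 16029 genes tested, in 3 comparisons. Arc (diamond) lies at log2 1.11, 1.52 and 0.41 from left to right, and is not among the genes with an adjusted p under 0.05 (orange) in any of them.

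Vulnerable over Non Vulnerable compares rats given the same cocaine schedule. Arc was 2.15-fold higher in Vulnerable rats, with a log2 fold change of 1.11, SE 0.406 and a 95% interval of 0.19 to 2.03. The call was missed (edgeR adjusted p = 0.0654, unadjusted p = 0.0234), and an exact two-sided permutation test of log2 CPM gave p = 0.2. This comparison called 31.5% of all genes tested and, as higher in Vulnerable rats, 15.1% of all genes tested. A smaller p than that of Arc was found for 35.7% of genes. The groups overlapped only through Vulnerable rat 3 and Non Vulnerable rat 1; under TMM, 21.8% of all genes tested were higher in Vulnerable rats without overlap. On plain library totals Arc was higher in all Vulnerable than in all Non Vulnerable rats, as were 30.3% of genes tested.

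The size of that difference depended on single rats of both groups. Without Non Vulnerable rat 1, Arc was 3.04-fold higher in Vulnerable rats (log2 1.61, SE 0.381) and was called (edgeR adjusted p = 0.0142). Without Non Vulnerable rat 3, it was 1.71-fold higher (log2 0.77, edgeR adjusted p = 0.132). Without Vulnerable rat 2 it was 1.9-fold higher (log2 0.93, edgeR adjusted p = 0.169), and without Vulnerable rat 3 it was 2.52-fold higher (log2 1.33, edgeR adjusted p = 0.0716). DESeq2 called Arc with all 9 rats (log2 1.13, adjusted p = 0.0142), and so did edgeR on plain library totals (log2 1.24, adjusted p = 0.0404), an alternative chosen after the data were seen. The smallest and largest adjusted p over all 22 alternatives were 0.0138 and 0.169.

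Non Vulnerable over Saline gave the smallest difference. Arc was 1.33-fold higher in Non Vulnerable rats, a log2 fold change of 0.41 with SE 0.405, and its 95% interval of -0.5 to 1.33 holds both a fall and a doubling (edgeR adjusted p = 0.514). Here 14.7% of all genes tested were called. An exact two-sided permutation test of log2 CPM gave p = 0.7. Leaving out each rat in turn changed the direction in 1 of 9 fits: without Non Vulnerable rat 1 the fit gave a log2 fold change of -0.08 (edgeR adjusted p = 0.889). The fits without a Vulnerable rat keep all the rats compared here, so they could hardly change the direction (log2 0.37 to 0.41). The direction held in the other fits. Leaving out Non Vulnerable rat 3 gave 0.75 (edgeR adjusted p = 0.192), leaving out Saline rat 1 gave 0.68 (edgeR adjusted p = 0.362), and leaving out Saline rat 3 gave 0.25 (edgeR adjusted p = 0.758).

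Both cocaine groups together averaged 82.2 CPM and Saline rats 39.1 CPM. The edgeR contrast does not compare these CPM means, but averages the fitted Vulnerable and Non Vulnerable levels on the log2 scale. It gave a log2 difference from Saline of 0.97 ± 0.364 (SE; edgeR adjusted p = 0.569, unadjusted p = 0.0262), which is 1.96-fold. It averages groups whose Arc means were 112 CPM (Vulnerable) and 52.1 CPM (Non Vulnerable), and it shares the Saline rats with both comparisons above. In this contrast edgeR called 0% of genes, with 1391 genes (8.68% of those tested) at an unadjusted p under 0.05. DESeq2 called 110 genes (0.832% of those it gave an adjusted p), Arc not among them (DESeq2 adjusted p = 0.158), and limma voom called 0 genes. Non Vulnerable rats 2 and 3 lay within or below the Saline range, and an exact two-sided permutation test of log2 CPM gave p = 0.167, where the smallest possible is 0.0119. Without Non Vulnerable rat 1 the log2 difference was 0.72 (edgeR adjusted p = 0.371).

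A test of all 3 groups at once called Arc by a narrow margin (edgeR adjusted p = 0.0484), as it did 21.3% of all genes tested. An exact permutation test over all 1680 assignments of rats to groups gave p = 0.0786. With 1 rat left out, the call ended in 7 of 9 fits, those without any of the Vulnerable or Saline rats or Non Vulnerable rat 2, where the edgeR adjusted p ran from 0.0518 to 0.145. It held without Non Vulnerable rat 1 (edgeR adjusted p = 0.0151) and without Non Vulnerable rat 3 (edgeR adjusted p = 0.0403).

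**Figure D3:**
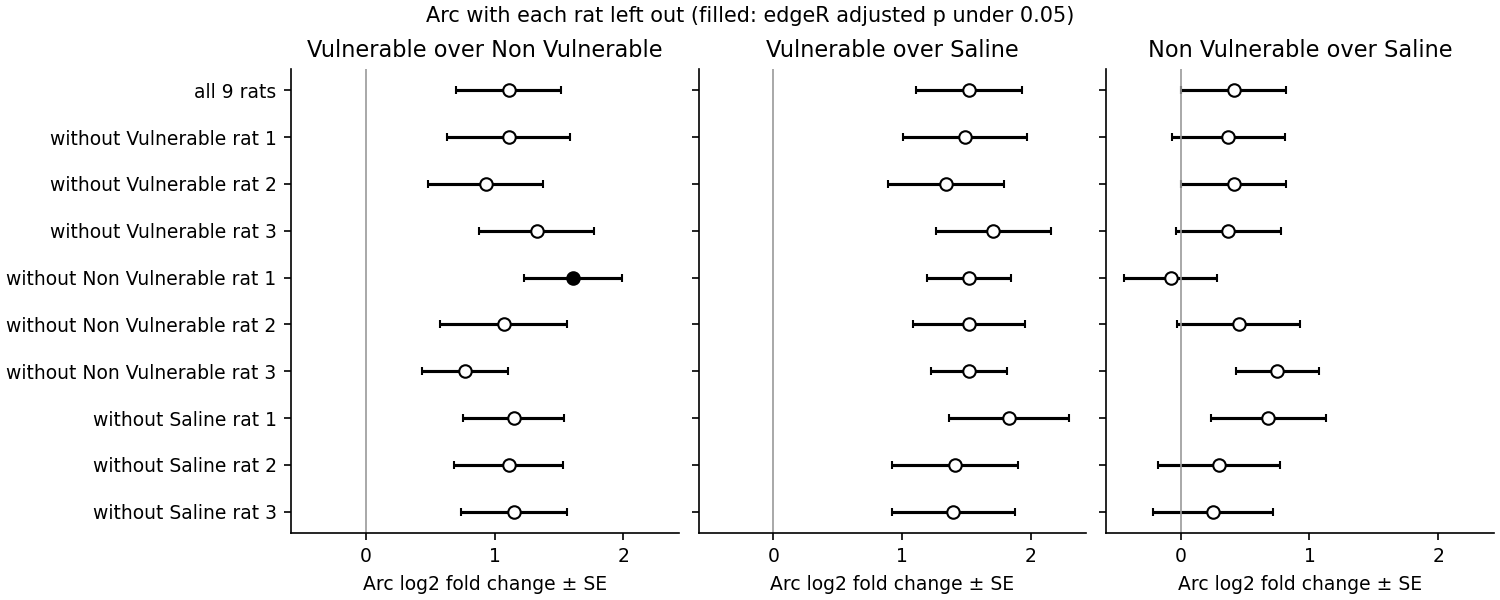
Arc log2 fold change ± SE (edgeR) with all 9 rats and with each rat left out, for 3 comparisons. The fitted group differences of Vulnerable over Non Vulnerable and over Saline stay above 0 throughout. Non Vulnerable over Saline crosses 0 without Non Vulnerable rat 1. The filled point (1.61) is the only one with an adjusted p under 0.05.

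Arc varied more between rats of a group than most genes did. The SD of its log2 CPM was 0.399 in Vulnerable, 0.866 in Non Vulnerable and 0.455 in Saline rats, where the median gene tested had 0.142, 0.171 and 0.137 in the same groups. That placed Arc above 86.8%, 96.2% and 87.5% of all genes tested. Among genes of like mean level it was above 98.7% in Vulnerable, 99.8% in Non Vulnerable and 97.8% in Saline rats. The highest rat exceeded the lowest 1.71-fold in Vulnerable, 3.31-fold in Non Vulnerable and 1.78-fold in Saline rats. In Non Vulnerable rats it was 2.01-fold without rat 1 and 1.64-fold without rat 3, and in Saline rats 1.06-fold without rat 1. The biological coefficient of variation fitted by edgeR for Arc was 34.1%, against 11.5% on the trend for genes of its abundance. The fit assumes the same spread in all groups. With limma voom given a spread per group, chosen after the data were seen, Vulnerable over Saline had log2 1.54 and SE 0.376. Its limma voom adjusted p was 0.795 and its unadjusted p 0.0027. With a common spread, limma voom gave SE 0.419 and unadjusted p = 0.00512. When edgeR fitted only the groups compared, SE was 0.278 for Vulnerable over Saline and 0.421 for Vulnerable over Non Vulnerable.

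**Figure D4:**
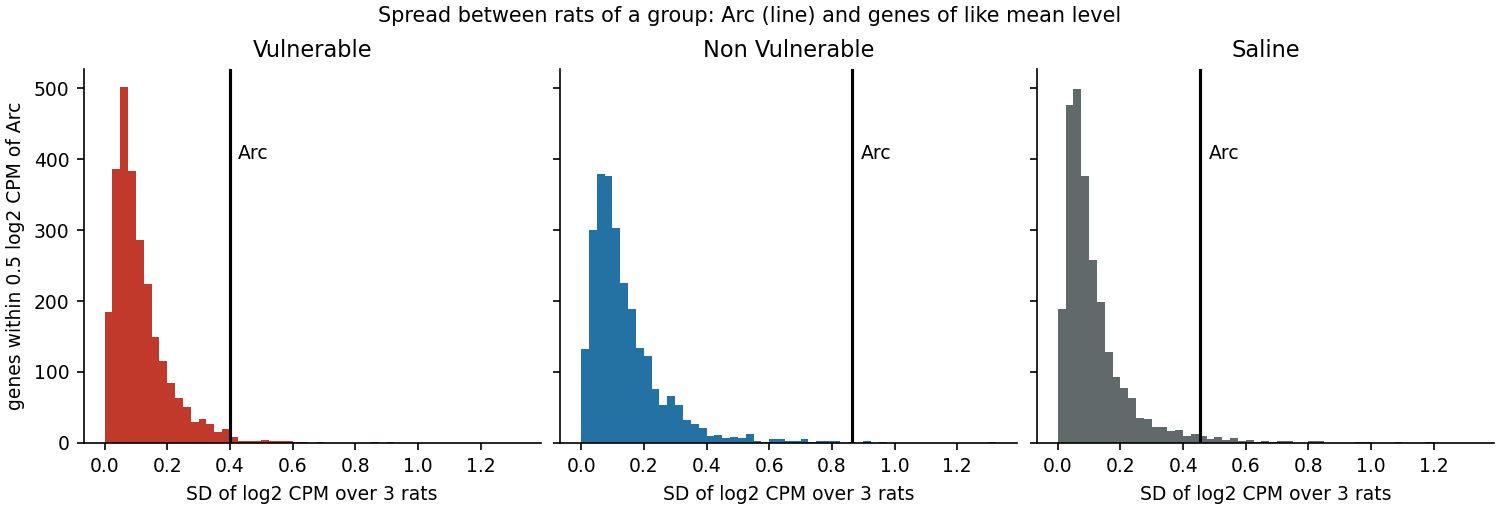
SD of log2 CPM over the 3 rats of each group (horizontal) for the 2590 genes, Arc included, whose mean lies within 0.5 log2 CPM of Arc; the vertical axis counts genes and the black line is Arc. The line lies at 0.399, 0.866 and 0.455, in the upper tail of each group.

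Within both cocaine groups Arc ran in the same order as the leading principal component. Vulnerable rats 2, 1 and 3 had component scores of 34.2, 30.5 and 21.7 and Arc at 138, 118 and 80.8 CPM. Non Vulnerable rats 1, 2 and 3 had scores of -7.51, -46.9 and -58.5 and Arc at 81.8, 49.8 and 24.7 CPM. Saline rats 2, 3 and 1 had scores of 10, 9.22 and 7.3 and Arc at 32.5, 30.5 and 54.3 CPM, so the rat with the lowest score had the most Arc there. The Saline rats also had less Arc than Non Vulnerable rat 1 at higher scores. With 3 rats in a group these orders were not tested, nor was the part of the component, or of the counts taken up by the most counted genes in Non Vulnerable rat 1, in the results on Arc.

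The genes of most like pattern were taken by the root mean square difference from Arc in log2 CPM, centred on each gene's mean over the 9 rats. Arc itself varied by 0.831 on this measure. Of the other 16028 genes, 3 lay within a difference of less than 50% of that value, and the median difference was 0.866. The nearest was ENSRNOG00000014061, at a difference of 0.33. It had 3.66, 5.21 and 3.17 CPM in Vulnerable rats 1 to 3, 2.85, 1.87 and 1.36 CPM in Non Vulnerable rats and 2.33, 1.34 and 2.07 CPM in Saline rats. All its Vulnerable rats lay above all its other rats, as for 5.15% of genes tested. Its log2 fold change was 0.98 for Vulnerable over Non Vulnerable rats and 1.06 for Vulnerable over Saline rats, given as a description, since likeness to Arc in these rats chose it.

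ENSRNOG00000007607 came next, at a difference of 0.397. It averaged 61.7 ± 10.4 CPM in Vulnerable, 33.5 ± 6.3 CPM in Non Vulnerable and 25.2 ± 2 CPM in Saline rats (SD, n = 3 each). Its log2 fold changes were 0.88 for Vulnerable over Non Vulnerable, 1.29 for Vulnerable over Saline and 0.41 for Non Vulnerable over Saline, with SE of 0.156 to 0.158. The SE of Arc were 0.405 to 0.41. These values too describe a gene chosen for its likeness in the same rats, so no test of them is given. The likeness was computed on the same 9 libraries for all genes, and differences of group level common to many genes enter it. Neither ID is paired with a name in the files or tables used here.

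**Figure D5:**
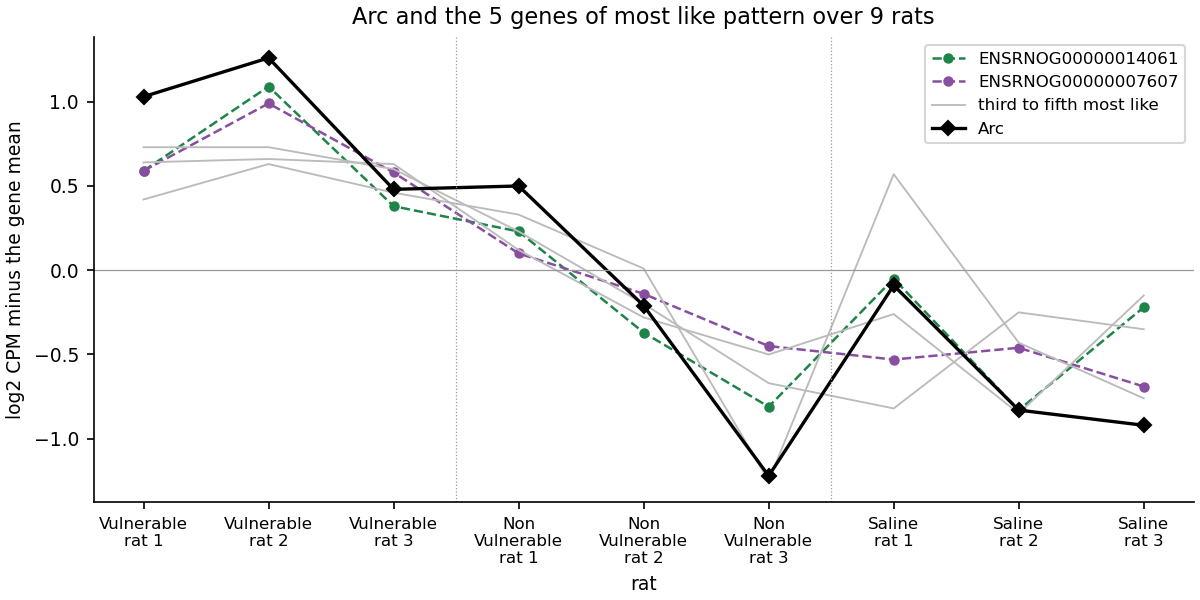
Log2 CPM minus the gene's mean over the 9 rats, for Arc and the 5 genes nearest to it. Arc has the widest swing, from 1.26 in Vulnerable rat 2 to -1.22 in Non Vulnerable rat 3.

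Of the RefSeq genes of assembly GRCr8, Arc on chromosome 7 overlaps 1 other, the long non-coding RNA gene LOC134479925. No source used here states whether counting kept strands apart, so reads of the overlap cannot be told apart by gene. Of the genes listed for comparison, 24 activity-induced immediate early genes, 16 partners of the Arc protein, 17 upstream factors and 8 genes of Arc turnover, 0 could be matched to the files' IDs. The same held for 32 markers of striatal projection neurons, other neurons, glia and choroid plexus. The labelled tissue was therefore not checked against markers, and the part of neighbouring tissue in the Arc differences was not tested. The extraction protocol mentions caudate putamen beside nucleus accumbens, and the tissue label names nucleus accumbens alone.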

How the data were processed

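The authors deposited raw read counts per Ensembl gene ID, 1 table for each of 36 libraries, not normalized. Per the labels' protocols, polyA-selected RNA went into strand-specific libraries. Tools listed in the submitters' processing notes are HTSeq 0.5.3, STAR and bcl2fastq 2.17.1.14, with build, annotation and strand setting not given in the sources used. Libraries held 10160424 to 16297870 counts. The 4 libraries of a rat differed by a chi-square per degree of freedom of 1.004 to 1.02 (genes with at least 40 counts) and were summed, so n = 3 rats a group.

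Counts were filtered (filterByExpr), TMM-scaled and fitted over all 9 rats with edgeR 4.0.16 in R 4.3.3 (glmQLFit, robust, 6 residual degrees of freedom); Benjamini-Hochberg adjustment ran over all tested genes, and an adjusted p under 0.05 made a call. SE came from the F statistic, and a prior count of 2 entered log2 CPM. Alternatives used DESeq2 1.42.0, limma 3.58.1, other scalings, other filters, single libraries, a block for rat number and each rat left out. The edgeR fit and the measure of like pattern were tried on simulated counts. There only Vulnerable rats were changed, in far fewer genes than were called here for Vulnerable over Non Vulnerable. The alternatives were not tried on simulated counts. Arc, the lists and the rule for like patterns (the nearest 5 genes, of which the first pair is printed) were chosen with earlier results of these data known. The labels number the rats, which were taken as separate animals.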

Additional observations from a re-analysis of the deposited data

Results flagged for a closer look

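Among the technical replicates of Non Vulnerable rat 3, library d lay apart from a, b and c, with Arc at 25.9 CPM of the library total in d against 23, 23.2 and 23.2 CPM. The gap was 0.914 of the range of the 4 libraries, above Dixon's 95% critical value. The counts of those 4 libraries did not differ beyond counting noise (chi-square p = 0.465), and chance flags about 1 in 20 groups, of which 9 were looked at.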

How the results depend on the processing

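The direction of Arc in Vulnerable over Non Vulnerable rats, Vulnerable over Saline rats and both cocaine groups over Saline rats held under every alternative run. Its call in Vulnerable over Non Vulnerable rats, missed with edgeR on all counts, was made with DESeq2 (log2 1.13), plain library totals (1.24, chosen after the data were seen), technical replicates a, b or d alone (1.14, 1.17 and 1.09) and the replicate block (1.23, edgeR adjusted p = 0.0138). The rat numbers were not taken to pair the samples. Over all genes, same-numbered rats correlated at over 0.1 in 2 of 9 pairs and with their own number best in 6 of 18 cases. That check does not settle the matter for Arc alone. With the block, the SE of Arc fell from 0.406 to 0.251 for Vulnerable over Non Vulnerable and from 0.41 to 0.252 for Vulnerable over Saline. A factor shared by same-numbered rats was not tested. The replicate block ended no call of Arc and changed no other. For Vulnerable over Saline, Arc was called with DESeq2 (1.54). The edgeR adjusted p for any difference, 0.0484, became 0.0516 without the 10 most counted genes in the scaling and 0.0896 without a filter. The other 8 of the 10 alternatives that left out no rat kept this call, with DESeq2 at an adjusted p of 0.00123. Technical replicates a to d alone gave edgeR adjusted p of 0.033 to 0.0493.

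With each rat left out, log2 fold changes ran from 0.77 to 1.61 for Vulnerable over Non Vulnerable, 1.34 to 1.83 for Vulnerable over Saline, -0.08 to 0.75 for Non Vulnerable over Saline (reversed without Non Vulnerable rat 1) and 0.72 to 1.26 for both cocaine groups over Saline, and the adjusted p for any difference from 0.0151 to 0.145. The causes were not tested. Over all alternatives the number of all genes called ran from 2798 to 6065 (5050 with all counts) for Vulnerable over Non Vulnerable, from 251 to 3746 (2351) for Non Vulnerable over Saline and from 1070 to 5222 (3416) for any difference. Counting error of Arc was at most 3.16% per rat, small beside the spread between rats.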
